A study of Mus musculus with 8 samples.

Results

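The 10 genes described here encode secreted factors that fibroblasts release in inflammation: the chemokines Cxcl1, Cxcl5, Cxcl10, Cxcl12, Ccl2, Ccl5 and Ccl7, and the cytokines Il6, Lif and Csf1. They were taken by gene identifier and symbol from a table of 19493 endogenous genes, and all 10 had a row. Their mRNA was sequenced in mouse embryonic fibroblasts (MEFs), primary connective tissue cells of E14.5 embryos, with 4 wild-type (WT) and 4 Dp1Tyb libraries. Dp1Tyb is the duplication Dp(16Lipi-Zbtb21)1TybEmcf of a stretch of chromosome 16, which the WT embryos lacked. The methods describe MEFs of WT littermate embryos, without saying whether this covers the cultures with spike-ins. The labels name the strain background of both genotypes as C57BL/6J.129P2, and the methods say that the mice had been backcrossed to C57BL/6JNimr. The study set scaling to ERCC spike-ins, synthetic RNAs added to a fixed number of cells, against relative scaling, and the genotypes are compared here in both ways for these factors. All MEFs came from embryos without head and viscera, grew in medium with serum and 2-mercaptoethanol, and were lifted with trypsin before lysis. They are mixed primary cultures with no sort for fibroblasts, and no inflammatory stimulus was given.

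Chemokines are small secreted proteins that attract leukocytes through G-protein-coupled receptors. Cxcl1 and Cxcl5 act on Cxcr2 and draw neutrophils, Ccl2 and Ccl7 act on Ccr2 and draw monocytes, and Cxcl10 and Ccl5 draw activated T cells. Cxcl12 signals through Cxcr4 and holds stem cells and lymphocytes in place. Il6 and Lif share the signalling subunit Il6st (gp130) and act through Stat3, while Csf1 keeps macrophages alive through its receptor Csf1r. In fibroblasts many of these genes are switched on by NF-kappaB, and Cxcl10 and Ccl5 also by interferon. Cultured fibroblasts and senescent fibroblasts are known to secrete several of them without added stimulus.

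None of the 10 genes lies in the duplicated stretch. All are annotated as protein-coding in GENCODE M21 on GRCm38. The CXC genes Cxcl5 (chr5:90759360-90761624) and Cxcl1 (chr5:90891241-90893115) lie on the plus strand with 129616 bases between them. Cxcl10 (chr5:92346638-92348889, minus strand) and Il6 (chr5:30013114-30019981, plus strand) are elsewhere on the same chromosome. Ccl2 (chr11:82035571-82037453) and Ccl7 (chr11:82045712-82047525) are neighbours on the plus strand, 8258 bases apart. Ccl5 (chr11:83525778-83530518, minus strand) and Lif (chr11:4257557-4272514, plus strand) share that chromosome. Cxcl12 is at chr6:117168535-117181367 on the plus strand and Csf1 at chr3:107741048-107760469 on the minus strand. Cxcl10 overlaps Art3 and Ccl2 overlaps Gm17268, each on the opposite strand. The strand option of the counting is not stated, so the counts of Cxcl10 and Ccl2 could include reads from those partners.

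The promoter sequences below, from RefSeq on GRCm38.p6, are the 250 bases before the annotated start, printed 5′ to 3′ on the strand of the gene. Such windows were used for 6 of the 10 factors. Those of Cxcl5, Ccl2, Ccl5 and Ccl7 were not analysed here. Those 4 are shown that carry the patterns described further on: Il6 varied most between libraries, Cxcl1 and Lif kept the steadiest ratio among the windows at hand, and Cxcl10 is the interferon-responsive chemokine among those windows. Capitals mark matches to the NF-kappaB motif (searched by its name's consensus), the AP-1 motif TGANTCA and the core GAAANNGAAA of the interferon-stimulated response element (ISRE), on either strand.
Il6, chr5:30012864-30013113, plus strand: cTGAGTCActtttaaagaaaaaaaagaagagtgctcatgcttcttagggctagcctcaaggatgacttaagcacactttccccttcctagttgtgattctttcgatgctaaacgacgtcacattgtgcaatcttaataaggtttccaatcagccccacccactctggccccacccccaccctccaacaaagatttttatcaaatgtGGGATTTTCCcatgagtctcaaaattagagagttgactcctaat
Cxcl1, chr5:90890995-90891244, plus strand: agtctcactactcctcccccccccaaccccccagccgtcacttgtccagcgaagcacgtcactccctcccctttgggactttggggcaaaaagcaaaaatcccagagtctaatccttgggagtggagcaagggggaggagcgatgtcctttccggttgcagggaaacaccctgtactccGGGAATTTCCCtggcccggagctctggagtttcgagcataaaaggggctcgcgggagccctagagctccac
Lif, chr11:4257318-4257567, plus strand: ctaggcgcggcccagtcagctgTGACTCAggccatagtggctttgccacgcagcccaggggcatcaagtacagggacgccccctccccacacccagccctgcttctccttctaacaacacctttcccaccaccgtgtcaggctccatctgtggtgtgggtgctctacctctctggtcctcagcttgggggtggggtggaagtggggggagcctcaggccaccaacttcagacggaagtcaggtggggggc
Cxcl10, chr5:92348890-92349139, minus strand: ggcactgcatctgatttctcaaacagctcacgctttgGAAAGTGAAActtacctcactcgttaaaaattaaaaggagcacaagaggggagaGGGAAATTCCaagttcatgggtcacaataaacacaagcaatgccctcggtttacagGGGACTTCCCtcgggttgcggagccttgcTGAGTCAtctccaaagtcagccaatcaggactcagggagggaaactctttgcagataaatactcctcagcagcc

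The Il6 window held an NF-kappaB match at -44 to -35 from the start and an AP-1 match at -249 to -243. In Cxcl1 an NF-kappaB match at -71 to -62 overlapped one on the other strand at -70 to -61, so the capitals there run over both. Cxcl10 held NF-kappaB matches at -159 to -150 and -103 to -94, an AP-1 match at -74 to -68 and the ISRE core at -213 to -204. The Lif window held an AP-1 match at -228 to -222 and no NF-kappaB match. Of the windows not printed, Csf1 held an NF-kappaB match on the other strand at -154 to -145 and Cxcl12 held none of these motifs. TATAAA was in none of the 6 windows. Among 32851 RefSeq windows of this length, 3.90% held the NF-kappaB motif, 6.75% the AP-1 motif, 2.98% the ISRE core and 12.4% TATAAA. The AP-1 letters read the same on both strands and count once. A match of letters is a description of the window and not evidence of binding in these cells.

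The libraries held 17698900 to 26471758 counts, of which spike-ins took 0.882 to 1.65%. Hmgn1, a gene of the duplicated stretch, was at 266.0 to 324.6 CPM (counts scaled by library size) in WT and 433.0 to 566.6 CPM in Dp1Tyb, with no overlap, as the labels have it. Fibroblast genes were abundant: Col1a1, Fn1 and Vim, which encode collagen, fibronectin and vimentin, averaged 824.5, 867.0 and 771.0 RPKM (CPM per kilobase of exon). Markers of macrophages were also present, with Lyz2 (lysozyme) at 128.3 RPKM, and all 16 macrophage markers listed passed the count filter. In bulk RNA, fewer cells of a type and less RNA per cell cannot be told apart. The replicate 1 libraries of both genotypes stood apart in several lists described below, so results that rest on them are also given without them.

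All 10 factors were detected in every library, and their levels per exon length covered a wide range (the plot of levels by library). Levels were highest for the Ccr2 ligand Ccl7, with a mean of 105.1 RPKM over the 8 libraries, followed by Ccl2 at 71.5 RPKM and Csf1 at 70.2 RPKM. Cxcl12 averaged 36.5 RPKM and Cxcl1 23.2 RPKM. Cxcl5 followed at 10.7 RPKM, Lif at 7.08 RPKM and Il6 at 3.48 RPKM. The T cell attractants were lowest, with Cxcl10 at 1.15 RPKM and Ccl5 at 0.392 RPKM. The order held within every library for Ccl7 over Ccl2, Csf1 over Cxcl12, Cxcl1 over Cxcl5, Lif over Il6 and Cxcl10 over Ccl5. It did not hold for Ccl2 and Csf1, of which Ccl2 was higher in 4 of 8 libraries, or for Cxcl12 and Cxcl1, of which Cxcl12 was higher in 5. Cxcl5 exceeded Lif in 6 and Il6 exceeded Cxcl10 in 7 of 8 libraries. The 8-library ranges of every pair of neighbours in this order overlapped.

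**Figure D1:**
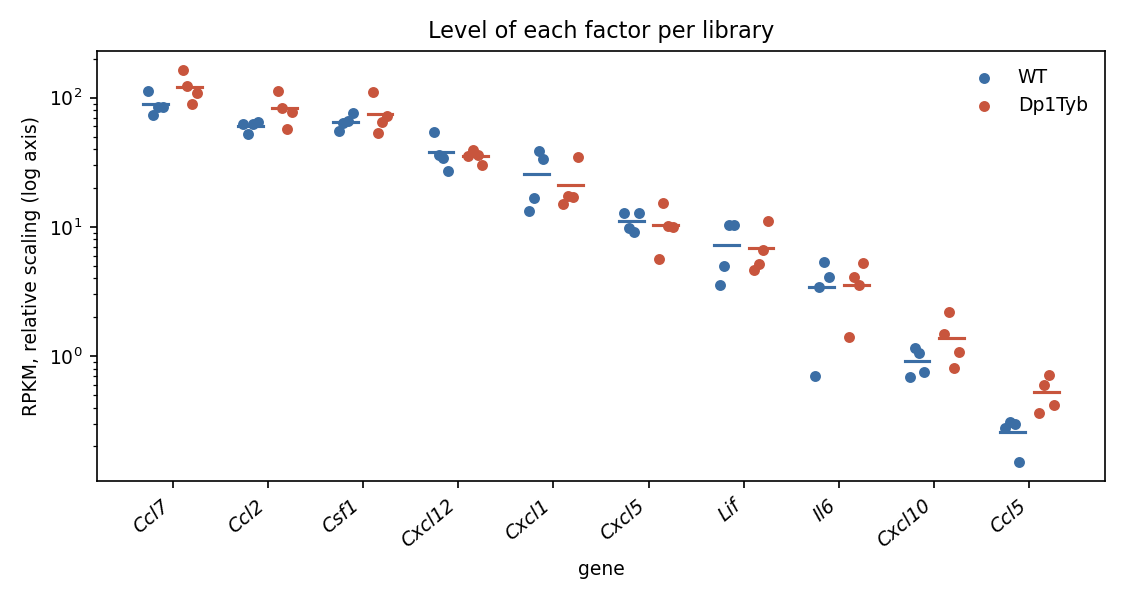
Level of each factor in RPKM on a log axis, by gene, with 1 point per library (WT blue, Dp1Tyb red, replicates 1 to 4 from left to right) and a line at the mean of each genotype. Levels run from Ccl7 (mean 105.1 RPKM) to Ccl5 (mean 0.392 RPKM), and the genotypes overlap for every gene except Ccl5.

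To ask whether the duplication altered these genes, Dp1Tyb MEFs were compared with WT MEFs in 2 ways. Spike-in scaling measures RNA per spike-in and so per cell. Relative scaling sets each gene against all other genes of its library. The filter on low counts left 9 of the 10 factors among 16470 tested genes, and Ccl5 fell below it. With edgeR's quasi-likelihood test and Benjamini-Hochberg adjustment over all tested genes, 0 of the 9 passed an adjusted p of 0.05 under either scaling. Few genes of any kind passed: 0.0121% of those tested on the spike-in scale and 0.0182% on the relative scale. DESeq2 also called 0 of the 9, against 0.0121% and 0.328% of all tested genes. At an unadjusted p under 0.05, 0 of 9 were past the threshold with spike-in scaling (1.17% of all tested genes). With relative scaling Ccl2 and Ccl7 were, both higher in Dp1Tyb, as were 1.74% of all tested genes in that direction. DESeq2 gave 2 of 9 as well, both higher, against 1.99% of all tested genes. The log2 fold change was above 0 for 6 of 9 factors on the spike-in scale, as for 70.4% of all tested genes, and for 5 of 9 on the relative scale, as for 51.2%. The median log2 fold change of the 9 was 0.27 (spike-in) and 0.06 (relative), beside 0.11 and 0.01 for all tested genes.

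**Figure D2:**
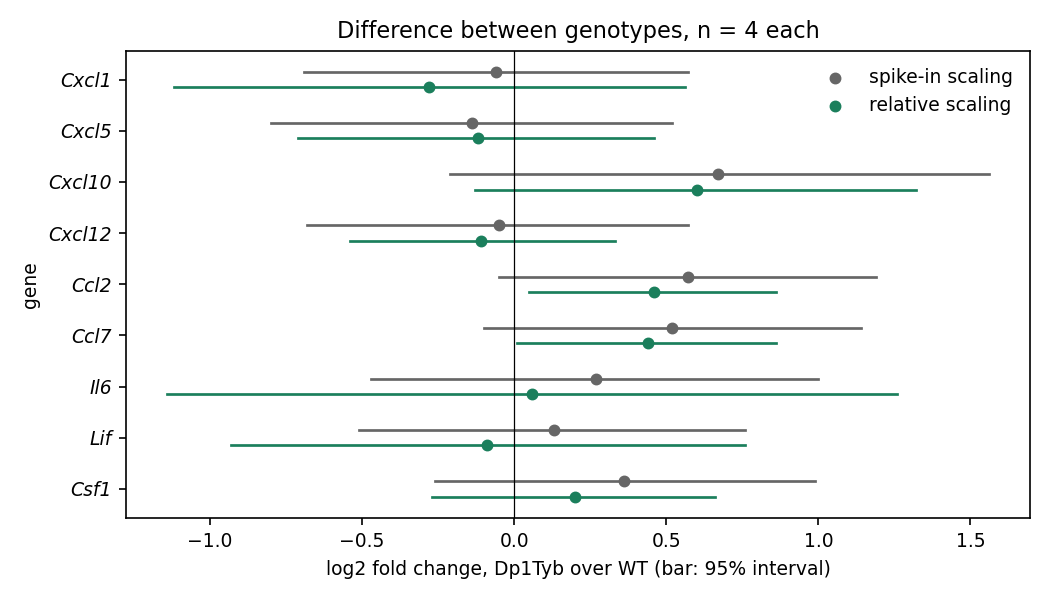
Log2 fold change of Dp1Tyb over WT for the 9 tested factors (n = 4 libraries per genotype), with points for the estimate and bars for its 95% interval, in grey for spike-in and green for relative scaling. Every interval includes 0 except those of Ccl2 and Ccl7 with relative scaling, and no gene passes after adjustment.

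Of the 9 tested factors, the Ccr2 ligands had the smallest p-values under both scalings. Ccl2, the main monocyte attractant, was at 71.2, 59.0, 71.2 and 73.2 CPM in WT replicates 1 to 4 and at 128.3, 94.7, 65.3 and 88.4 CPM in Dp1Tyb replicates 1 to 4 (relative scaling). Dp1Tyb replicates 1, 2 and 4 were above every WT library, and replicate 3 was within the WT range. With spike-in scaling Dp1Tyb replicate 2 was not above every WT library, at 65.1 CPM where WT reached 85.6 CPM. The means were 68.7 ± 6.51 CPM in WT and 94.2 ± 26.0 CPM in Dp1Tyb (SD, n = 4 each), with the wider spread in Dp1Tyb. The fold change was 1.37 (log2 0.46, SE 0.18, 95% interval 0.05 to 0.86), with an edgeR p of 0.0315 and an adjusted p of 0.999. With spike-in scaling it was 1.48 (log2 0.57, SE 0.32, -0.05 to 1.19), with an edgeR p of 0.0729 and an adjusted p of 1.000.

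Ccl7, which attracts monocytes through the same receptor, was at 91.0, 59.2, 68.3 and 68.0 CPM in WT and at 130.4, 98.6, 71.7 and 86.6 CPM in Dp1Tyb. The same Dp1Tyb library was highest, and 2 of the 4 Dp1Tyb libraries were above every WT library. The means were 71.6 ± 13.6 CPM and 96.8 ± 24.9 CPM (SD, n = 4 each). Ccl7 was 1.35-fold higher (log2 0.44, SE 0.19, 0.01 to 0.86), with an edgeR p of 0.0471 and an adjusted p of 0.999. Spike-in scaling gave 1.44-fold (log2 0.52, SE 0.32, -0.10 to 1.14), an edgeR p of 0.099 and an adjusted p of 1.000. Over all alternatives, the lowest adjusted p with relative scaling was 0.463 for Ccl2 and 0.347 for Ccl7, both from edgeR with a replicate block. Without both replicate 1 libraries, the log2 fold change was 0.29 for Ccl2 (edgeR adjusted p = 0.861) and 0.40 for Ccl7 (edgeR adjusted p = 0.797). Of the factors, Ccl7 alone was then higher at an unadjusted p under 0.05, as were 2.77% of tested genes.

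Ccl2 and Ccl7 moved together from library to library. The ratio of their counts stayed between 0.782 and 1.08, and the SD of its log2 was 0.14, the smallest among the 36 pairs of the 9 tested factors. This is a description of 8 libraries, which share their depth, and the pair was picked for that value. Of the other chemokine genes beside them on chromosome 11, chosen for their position after the values had been seen, Ccl11 (chr11:82057823-82062955) was at 0.806 to 2.68 CPM in WT and 1.53 to 2.08 CPM in Dp1Tyb. Ccl8 (chr11:82115185-82116799) was at 0.777 to 3.22 and 1.01 to 3.35 CPM. Both had wide overlap between genotypes, with log2 fold changes of 0.11 and 0.30 (relative scaling; edgeR adjusted p = 0.999 each). Ccl12, between Ccl11 and Ccl8 at chr11:82101845-82103400, did not pass the count filter. The cluster thus held both the factor with the highest RPKM, Ccl7, and genes near the floor of detection. By CPM, which leaves out exon length, Csf1 (345.2 in WT) and Cxcl12 (309.7 in WT) were above Ccl7 (71.6 in WT).

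Csf1, the growth factor of macrophages, was at 290.2, 335.4, 351.0 and 404.0 CPM in WT and at 580.5, 282.6, 340.6 and 381.2 CPM in Dp1Tyb. Dp1Tyb replicate 1 alone was above the WT range, and the other Dp1Tyb libraries lay within it or just below. With spike-in scaling Dp1Tyb replicate 4 was above it too, at 500.9 CPM where WT reached 472.4 CPM. The means were 345.2 ± 46.9 CPM and 396.2 ± 129.3 CPM (SD, n = 4 each), a log2 difference of 0.20 (SE 0.21, -0.27 to 0.66; edgeR adjusted p = 0.999). Without both replicate 1 libraries its sign turned, to -0.12. With spike-in scaling it was 0.36 (SE 0.32, -0.26 to 0.99). In Dp1Tyb replicate 1, where Ccl2, Ccl7 and Csf1 peaked, summed endothelial (80.6 CPM) and epithelial (50.1 CPM) markers were also highest. The mean log2 deviations of those lists in that library were 0.00 and -0.44. The part of these markers in the levels of the factors was not tested.

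The neutrophil attractants differed between genotypes by less than the spread between libraries. Cxcl1 was at 24.9, 31.1, 72.5 and 62.7 CPM in WT and at 28.3, 32.3, 31.6 and 65.2 CPM in Dp1Tyb. WT replicates 3 and 4 and Dp1Tyb replicate 4 were high and the other 5 libraries low, so the split ran within genotypes. Its log2 fold change was -0.28 (SE 0.38, -1.12 to 0.56) with relative and -0.06 (SE 0.32, -0.69 to 0.57) with spike-in scaling. With relative scaling the interval runs from 0.460-fold to 1.47-fold, so changes of these sizes are not excluded. Cxcl5, on the same chromosome and with the same receptor, was at 24.0, 18.4, 17.1 and 23.9 CPM in WT and at 10.6, 28.5, 19.1 and 18.6 CPM in Dp1Tyb. With relative scaling Dp1Tyb held both its lowest and its highest library, replicates 1 and 2. With spike-in scaling WT held both, replicate 3 at 12.2 CPM and replicate 1 at 28.5 CPM. The means were 20.8 ± 3.61 and 19.2 ± 7.32 CPM (SD, n = 4 each), with a log2 fold change of -0.12 (SE 0.26, -0.71 to 0.46). The ratio of Cxcl1 to Cxcl5 counts ran from 1.04 to 4.24, a wider range than that of Ccl2 to Ccl7. Ppbp, Pf4 and Cxcl15 lie between them. Cxcl2, which follows Cxcl1 in the cluster at chr5:90903871-90905938 and was chosen for its position after the values had been seen, was at 0.402, 3.05, 9.10 and 8.83 CPM in WT and 0.193, 2.94, 3.30 and 6.50 CPM in Dp1Tyb. Its lowest libraries were replicate 1 of each genotype, as for Il6.

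Il6, the cytokine that drives the acute phase response, varied more between libraries than any other factor here. It was at 1.70, 8.36, 13.0 and 10.0 CPM in WT and at 3.40, 9.86, 8.56 and 12.8 CPM in Dp1Tyb. Replicate 1 was lowest in both genotypes, on 38 and 88 counts, and the other 6 libraries lay close together. The highest library was 7.64-fold above the lowest. The SD of log2 CPM within genotypes was 1.10, above that of 98.5% of tested genes and of 99.3% of those within 2-fold of its level. The log2 difference between genotypes was 0.06 (SE 0.54, -1.14 to 1.26; edgeR adjusted p = 0.999), and 0.00 (SE 0.22) without both replicate 1 libraries. With spike-in scaling it was 0.27 (SE 0.38, -0.47 to 1.00).

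Lif, which keeps mouse embryonic stem cells undifferentiated, was at 15.6, 21.6, 44.7 and 44.9 CPM in WT and at 20.1, 22.6, 28.6 and 48.3 CPM in Dp1Tyb. WT replicates 3 and 4 and Dp1Tyb replicate 4 were high, the same 3 libraries as for Cxcl1. The means were 31.7 ± 15.3 and 29.9 ± 12.8 CPM (SD, n = 4 each). The log2 fold change was -0.09 (SE 0.38, -0.93 to 0.76) with relative and 0.13 (SE 0.32, -0.51 to 0.76) with spike-in scaling, so its sign turned with the scaling and both were within the error. The ratio of Cxcl1 to Lif counts stayed between 1.10 and 1.62 (SD of log2 0.17), the second steadiest of the 36 pairs. The least steady was Cxcl12 with Il6, at an SD of 1.27.

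**Figure D3:**
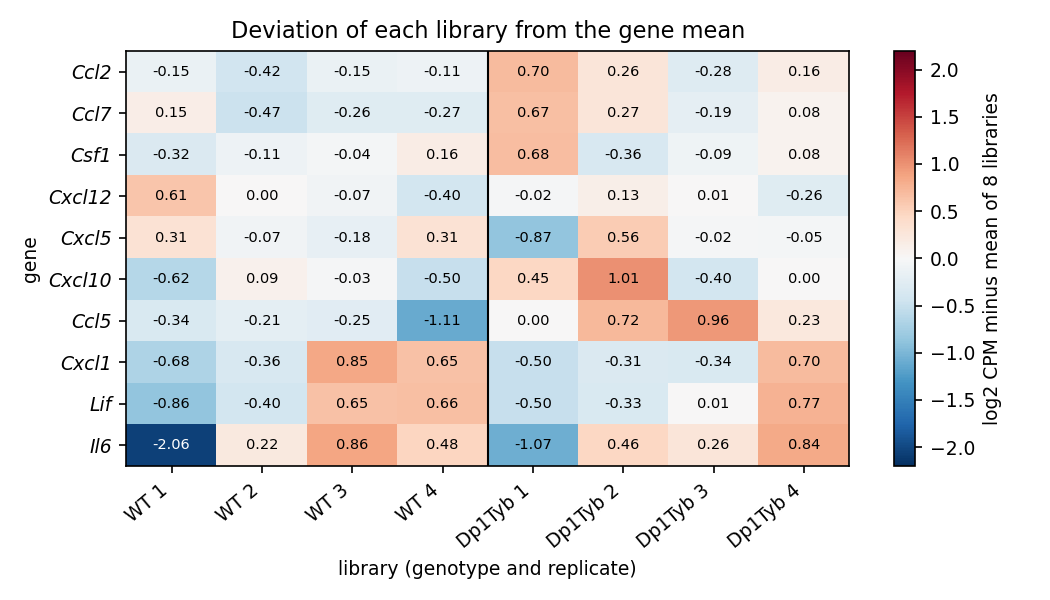
Deviation of each library from the mean of the gene over 8 libraries, in log2 CPM with relative scaling, for the 10 factors (rows) and the WT and Dp1Tyb replicates (columns, split by a line). Il6 is lowest in replicate 1 of both genotypes (-2.06 and -1.07), Cxcl1 and Lif share their high and low libraries, and Ccl2, Ccl7 and Csf1 peak in Dp1Tyb replicate 1 (0.70, 0.67 and 0.68).

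Cxcl12, the homeostatic chemokine of stromal cells, was at 445.6, 292.5, 279.3 and 221.4 CPM in WT and at 289.7, 320.1, 295.7 and 244.5 CPM in Dp1Tyb. WT held both the highest and the lowest library, and all Dp1Tyb libraries lay between them. With relative scaling its highest-to-lowest ratio of 2.01 was the smallest of the factors, close to 2.05 for Csf1. By the SD of log2 CPM within genotypes, Ccl2 (0.30) was below Cxcl12 (0.32). The log2 fold change was -0.11 (SE 0.20, -0.54 to 0.33; edgeR adjusted p = 0.999) with relative and -0.05 (SE 0.32, -0.68 to 0.57) with spike-in scaling. Its decoy receptor Ackr3, which removes Cxcl12 from the medium, was at 21.7 to 35.7 CPM in WT and 16.9 to 28.8 CPM in Dp1Tyb (log2 -0.28; edgeR adjusted p = 0.999). With 1 library left out, the log2 fold change of Ackr3 ran from -0.39 to -0.14.

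The T cell attractants had the highest fold changes on the lowest counts. Cxcl10 was at 1.56, 2.59, 2.37 and 1.70 CPM in WT, on 35 to 61 counts, and at 3.33, 4.90, 1.82 and 2.42 CPM in Dp1Tyb, on 37 to 86 counts. Dp1Tyb replicates 1 and 2 were above the WT range, and replicates 3 and 4 lay within it. With spike-in scaling Dp1Tyb replicate 4 was above it too, at 3.18 CPM where WT reached 2.28 CPM. The means were 2.05 ± 0.50 and 3.12 ± 1.34 CPM (SD, n = 4 each), which is 1.51-fold (log2 0.60, SE 0.32, -0.13 to 1.32; edgeR adjusted p = 0.999). With spike-in scaling the log2 fold change was 0.67 (SE 0.45, -0.21 to 1.56; edgeR adjusted p = 1.000). Without both replicate 1 libraries the log2 fold change was 0.45 (edgeR adjusted p = 0.866).

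Ccl5 was counted 6, 7, 6 and 3 times in WT replicates 1 to 4 and 9, 10, 14 and 7 times in Dp1Tyb replicates 1 to 4. It was the one factor whose genotypes did not overlap, at 0.152 to 0.309 RPKM in WT and 0.363 to 0.718 RPKM in Dp1Tyb. That holds with both scalings, and for 1.45% of all genes of the table with relative and 0.328% with spike-in scaling. When the filter was left out, its log2 fold change was 0.99 (SE 0.40, 0.11 to 1.89) with an edgeR p of 0.0306 and an adjusted p of 1. Spike-in scaling gave 1.09 (SE 0.66, -0.18 to 2.40), with an edgeR p of 0.0912 and an adjusted p of 1. At a level of 3 to 14 reads per library, counting error is a large share of each value.

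The interferon-stimulated genes, which share the interferon response with Cxcl10 and Ccl5, were examined as a list of 20. Under either scaling 0 of the 20 passed the adjusted threshold of edgeR. At an unadjusted p under 0.05, 2 were higher on the relative scale (1.74% of all tested genes) and 2 on the spike-in scale (0.85%). The median log2 fold change was 0.37 (relative) and 0.38 (spike-in), beside 0.01 and 0.11 over all tested genes. With relative scaling those 2 were Mx2 (log2 1.11), an antiviral GTPase gene that itself lies in the duplicated stretch, and Oas1a (log2 0.94), an RNA sensor (edgeR adjusted p = 0.999 each). With 1 library left out, Mx2 ran from 0.84 to 1.8 and Oas1a from 0.77 to 1.38, both highest without WT replicate 1. The summed level of the 20 was 874.8, 327.0, 351.4 and 282.7 CPM in WT and 750.3, 651.3, 501.9 and 424.6 CPM in Dp1Tyb. WT replicate 1 was far above the other WT libraries, which all lay below every Dp1Tyb library. Both replicate 1 libraries were then left out, a choice made after the values had been seen. Each was the library of its genotype where this list was highest, so the counts without them partly follow from that choice. With relative scaling, 19 of 20 were then higher at an unadjusted p under 0.05, against 2.77% of tested genes. The median was 0.83, beside 0.01 over all. Spike-in scaling gave 11 of 20, against 0.923%, and a median of 0.91, beside 0.15 over all. In both, 0 passed the adjusted threshold of edgeR. Without WT replicate 1 alone, 2 of the 20 passed it on the spike-in scale (0.0364% of all tested genes) and 0 on the relative scale (0.00607%). With all libraries and a replicate block, 1 of the 20 passed with spike-in and 0 with relative scaling. No share of all tested genes is given for the block. With relative scaling, Cxcl10 was lowest in WT replicate 1, the WT library where these genes were highest. With spike-in scaling it was lowest in WT replicate 3, at 1.69 CPM beside 1.86 CPM in WT replicate 1. WT replicates 1 and 4 both held 35 counts of Cxcl10.

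The duplicated stretch carries 4 receptor subunits for interferons and interleukin-10, and all 4 had every Dp1Tyb library above every WT library, as 1.64% of tested genes did. Their sum was 176.6 to 202.7 CPM in WT and 300.6 to 328.3 CPM in Dp1Tyb. Ifnar1, a subunit of the type I interferon receptor, was 1.75-fold higher (edgeR adjusted p = 0.049995, relative scaling), and with spike-in scaling none of the 4 passed. The call of Ifnar1 was lost with any 1 library left out, when the adjusted p ran from 0.0766 to 0.419, while the log2 fold change stayed between 0.77 and 0.87. DESeq2 with relative scaling called 3 of the 4 subunits, Ifnar1 among them (adjusted p = 4.11e-09), against 0.328% of all tested genes. With edgeR, upper-quartile factors and a replicate block called 2 each, for which no share of all tested genes is given here. Median-of-ratios factors, no filter on low counts and at least 10 counts in every library each gave 0.

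Of the receptors of the factors, 10 of 15 listed were tested, 0 were called by edgeR, and 9 of 10 had a negative log2 fold change with relative scaling (median -0.23), where 51.2% of all tested genes were above 0. With spike-in scaling 6 of 10 were negative (median -0.14), where 70.4% of all tested genes were above 0. When both replicate 1 libraries were left out, 7 of 10 (relative, median -0.14) and 5 of 10 (spike-in, median 0.00) were negative. The medians over all tested genes were then 0.01 and 0.15. Osmr, the oncostatin M receptor and a relative of that for Lif, was at 307.4 to 323.8 CPM in WT and 296.5 to 314.8 CPM in Dp1Tyb. Il6st, the shared subunit of Il6 and Lif signalling, was abundant at 60.6 RPKM and had a log2 fold change of -0.01. The Il6 binding subunit Il6ra was far lower, at 1.80 RPKM (log2 -0.35; edgeR adjusted p = 0.999). Csf1r, the receptor of Csf1, was at 14.9 to 25.4 CPM in WT and 10.4 to 15.0 CPM in Dp1Tyb (log2 -0.60; edgeR adjusted p = 0.999). With relative scaling it was the 1 of 10 receptors that was lower at an unadjusted p under 0.05 (2.53% of all tested genes), and with spike-in scaling 0 were.

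Csf1r is also a macrophage marker, and macrophages are a cell type that such cultures can hold. All 16 macrophage markers had a negative log2 fold change, with a median of -0.59 (relative) and -0.47 (spike-in). With relative scaling 11 of 16 were lower at an unadjusted p under 0.05, where 2.53% of all tested genes were, and 0 passed the adjusted threshold of edgeR. With spike-in scaling 1 of 16 was lower at an unadjusted p under 0.05 (0.316% of all tested genes), and again 0 passed. Ptprc (CD45), the leukocyte marker, had the smallest p of the list and was chosen after its values had been seen, at 13.7 to 15.1 CPM in WT and 7.08 to 8.25 CPM in Dp1Tyb (log2 -0.87, edgeR adjusted p = 0.0903). DESeq2 with relative scaling called Ptprc (adjusted p = 6.41e-07), 1 of the 16 markers, against 0.328% of all tested genes. With edgeR and relative scaling the adjusted p of Ptprc ran from 0.0539 to 0.597 over the alternatives. The sum of the list ran from 401.9 to 541.6 CPM in WT and from 227.2 to 423.8 CPM in Dp1Tyb. Both replicate 1 libraries were also left out, a choice made after seeing the data. The sums were then 401.9 to 474.6 CPM in WT and 227.2 to 300.6 CPM in Dp1Tyb. With relative scaling 12 of 16 were then lower at an unadjusted p under 0.05, against 2.54% of tested genes. With spike-in scaling 0 of 16 were, against 0.279%. The log2 fold changes of Ccl2 and Ccl7 had the opposite sign. Skeletal muscle markers, of which 4 of 8 listed were tested, all had positive log2 fold changes (median 0.79 relative, 0.88 spike-in). At an unadjusted p under 0.05, 1 of 4 was higher with relative scaling (1.74% of all tested genes) and 3 of 4 with spike-in scaling (0.85%), and 0 passed the adjusted threshold of edgeR. Their sum was 19.0 to 32.1 CPM in WT and 22.5 to 48.5 CPM in Dp1Tyb. When both replicate 1 libraries were left out, it was 19.2 to 32.1 and 39.7 to 48.5 CPM, and 2 of 4 (relative, 2.77% of all tested genes) and 4 of 4 (spike-in, 0.923%) were higher at an unadjusted p under 0.05. The part of the macrophage and muscle markers in the levels of the factors was not tested.

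**Figure D4:**
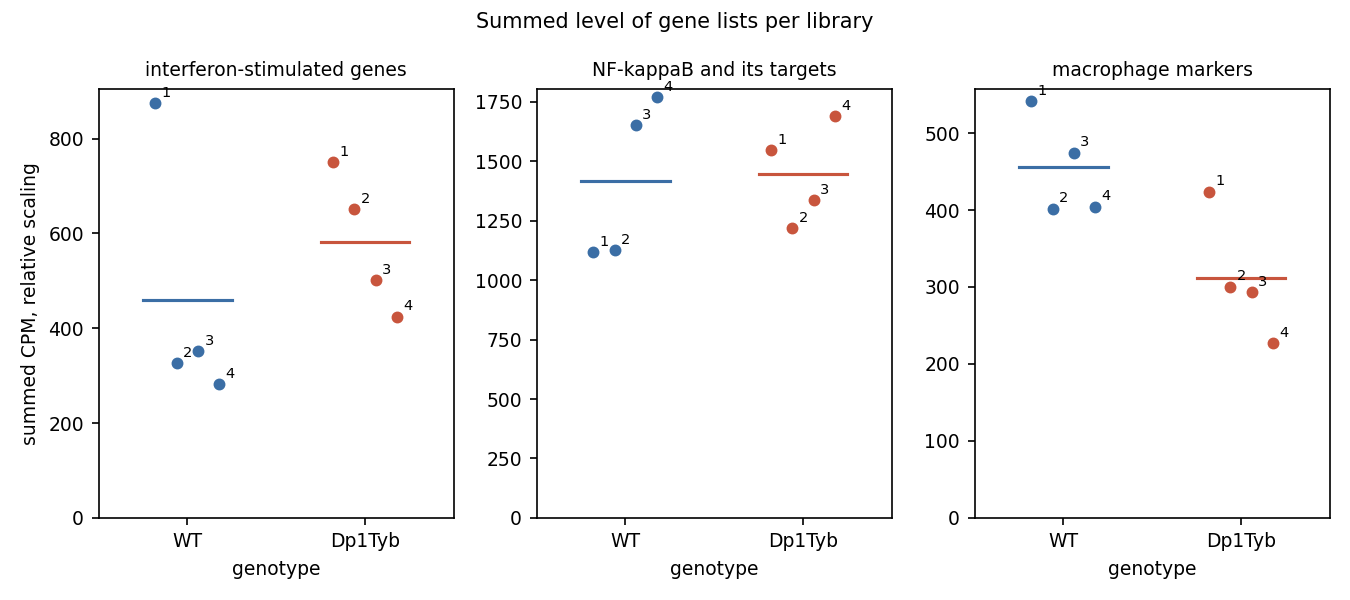
Summed CPM per library, relative scaling, of the interferon-stimulated genes, NF-kappaB with its targets, and macrophage markers in WT and Dp1Tyb MEFs, with replicate numbers beside the points and a line at each mean. WT replicate 1 stands at 874.8 CPM among the interferon-stimulated genes, and the macrophage sum is lower in most Dp1Tyb libraries (227.2 to 423.8 CPM) than in WT (401.9 to 541.6 CPM).

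Among other secreted factors, 17 of 29 further chemokines and 14 of 20 further cytokines were tested, and edgeR called none of them with either scaling. At an unadjusted p under 0.05 with relative scaling, 1 further chemokine was lower (2.53% of all tested genes) and 0 further cytokines passed. With spike-in scaling 2 further chemokines were higher (0.85% of all) and 1 further cytokine lower (0.316%). With both replicate 1 libraries left out, 2 further chemokines were higher and 3 lower on the relative scale, and 2 further cytokines were higher and 3 lower (2.77% and 2.54% of all tested genes). On the spike-in scale 2 further chemokines were then higher and 0 lower, and 1 further cytokine was higher and 2 lower (0.923% and 0.279%). Pf4, the platelet chemokine that macrophages also make, was at 0.388 to 0.938 CPM in WT and 0.115 to 0.519 CPM in Dp1Tyb (log2 -1.03; edgeR adjusted p = 0.999). Tnf, an inducer of many of the factors, was at 0.760 to 7.53 CPM in WT and 0.348 to 2.95 CPM in Dp1Tyb (log2 -1.50; edgeR adjusted p = 0.999). Tnf was the cytokine lower with spike-in scaling (log2 -1.34; edgeR adjusted p = 1). Ccl20, which attracts immature dendritic cells, was 1 of the 2 chemokines higher with spike-in scaling, at 0 to 0.848 CPM in WT and 0.116 to 1.85 CPM in Dp1Tyb (log2 1.64 spike-in, 1.56 relative; edgeR adjusted p = 1 and 0.999). With 1 library left out, the relative log2 fold change of Ccl20 ran from 1.02 to 2.85. Cxcl14 was the most expressed further chemokine at 30.5 RPKM, and Vegfa the most expressed further cytokine at 38.4 RPKM.

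NF-kappaB and its targets, which include inducers of the factors, were tested as a list. Of 22 tested genes 0 were past an unadjusted p of 0.05 with edgeR under either scaling, a threshold that 1.17% of all tested genes passed on the spike-in scale and 1.74% (higher) and 2.53% (lower) on the relative scale. Of the 22, log2 fold changes were positive for 10 and negative for 12 with relative scaling, and for 19 and 3 with spike-in scaling, where 70.4% of all tested genes were above 0. Their sum was 1118.8, 1126.1, 1652.0 and 1772.0 CPM in WT and 1545.9, 1218.3, 1337.5 and 1689.6 CPM in Dp1Tyb. The 3 libraries with the highest sums, WT replicates 3 and 4 and Dp1Tyb replicate 4, were those in which Cxcl1, Lif and Il6 were highest. Nfkbia, the inhibitor that NF-kappaB induces, was at 28.1 to 83.8 CPM in WT and 26.6 to 74.0 CPM in Dp1Tyb. Of 12 genes of Il6 family signalling 0 were past the same threshold under either scaling, with those shares of all tested genes. Their log2 fold changes were positive for 6 and negative for 6 (relative) or 11 and 1 (spike-in), where 51.2% and 70.4% of all tested genes were above 0. Of 18 senescence genes 0 were past an unadjusted p of 0.05 with spike-in scaling, and 2 were higher with relative scaling (1.74% of all tested genes): the cell cycle inhibitor Cdkn2b (log2 0.53; edgeR adjusted p = 0.876) and Igfbp7 (log2 0.43; edgeR adjusted p = 0.999). With both replicate 1 libraries left out, 4 of 18 were higher and 0 lower on the relative scale (2.77% and 2.54% of all tested genes), and 0 were higher and 1 lower on the spike-in scale (0.923% and 0.279%).

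Genes whose pattern over the 8 libraries was most like each factor were found by the highest Pearson r of log2 CPM among 16470 tested genes, as a description with no test. For Cxcl1 this was Baiap2l1 (r = 0.969), which was also second for Lif (r = 0.978). The first for Lif, a gene without a matched symbol, reached 0.981. Il6 was most like Kcnf1 (0.986), Cxcl12 most like Eif2ak3 (0.984) and Cxcl5 most like Tmem38b (0.954). Ccl2 was most like Psmd10 (0.979), Ccl7 most like Pafah2 (0.984), Csf1 most like Ptp4a2 (0.977) and Cxcl10 most like Cebpzos (0.976). With so many genes and 8 libraries, values of this size come from picking the highest.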

How the data were processed

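Poly(A) RNA of 4 WT and 4 Dp1Tyb MEF cultures was sequenced on 1 lane by its code. Per the methods and processing notes, the authors trimmed reads with Trim Galore, aligned them to GRCm38 and spike-ins with TopHat2 2.0.12, discarded multiply aligning reads and counted genes with htseq-count. The deposited raw counts are whole and not normalized. Deposited normalized values and DESeq2 results were not used.

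Spike-in scaling used median-of-ratios factors over 63 spike-ins, and relative scaling TMM factors. filterByExpr kept 16470 genes with 99.91% of counts. Genotypes were compared with edgeR 4.0.16 (R 4.3.3), two-sided, by the quasi-likelihood test with Benjamini-Hochberg adjustment over all tested genes. DESeq2 1.42.0, other scalings, filters, a replicate block and leaving out libraries were alternatives. CPM and fold changes are on relative scaling unless stated. RPKM divides CPM by GENCODE M21 exon length, matched for 19318 genes and not for 175. Log2 deviations used a pseudocount of 0.5 counts. Code was tested on simulated data.

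The factors and gene lists were chosen with earlier results of these data known. Named were all 10 factors, list genes called or among the 3 smallest p or the 3 highest RPKM of their list, the most alike gene, and Hmgn1 and Ifnar1. Of those, the ones that bear on the factors are described. No label says that replicates are separate embryos beyond their numbers, so p-values measure the spread between these cultures.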

Additional observations from a re-analysis of the deposited data

Results flagged for a closer look

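In 46 groups of 4 libraries scanned, 5 held a library set apart from the others by more than the 95% critical value of Dixon's test, and chance gives about 1 in 20 such groups. Cxcl1 in Dp1Tyb was 65.2 CPM in replicate 4, with 32.3 CPM the nearest. Ccl2 in WT was 59.0 CPM in replicate 2, below 71.2 CPM in the nearest. The interferon-stimulated genes summed to 874.8 CPM in WT replicate 1, with 351.4 CPM the nearest. Epithelial markers summed to 50.1 CPM in Dp1Tyb replicate 1 (nearest 28.7 CPM), and skeletal muscle markers to 32.1 CPM in WT replicate 2 (nearest 20.9 CPM).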

How the results depend on the processing

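None of the 9 tested factors was called under any alternative with either scaling. The sign of Ccl2, Ccl7 and Cxcl10 was positive in every alternative: with 1 library left out, the log2 fold change (relative scaling) ran from 0.27 to 0.60, from 0.26 to 0.58 and from 0.30 to 0.79. Csf1 on spike-in scaling (0.05 to 0.62) also kept its sign, and Cxcl1 on relative scaling ran from -0.64 to 0.00, the last without WT replicate 3. The other signs turned when single libraries were left out, and the cause was not tested. With 1 library left out they ran, on spike-in scaling, from -0.61 to 0.28 for Cxcl1, -0.34 to 0.04 for Cxcl5, -0.22 to 0.34 for Cxcl12, -0.19 to 0.56 for Il6 and -0.39 to 0.53 for Lif. On relative scaling they ran from -0.38 to 0.08 for Cxcl5, -0.23 to 0.13 for Cxcl12, -0.28 to 0.37 for Il6, -0.42 to 0.14 for Lif and -0.04 to 0.33 for Csf1, and from -0.01 to 0.27 for Cebpd and -0.44 to 0.01 for Nfkbie. Leaving out both replicate 1 libraries, chosen after seeing the data, turned Cxcl5 to 0.19 and Cxcl12 to 0.25 (spike-in), and Cxcl5 to 0.16, Cxcl12 to 0.12, Il6 to 0.00 and Csf1 to -0.12 (relative).

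Of the listed pathway genes, 0 were called with spike-in scaling and 0 to 2 with 1 library left out, 2 without WT replicate 1, both interferon-stimulated genes. With relative scaling 1, Ifnar1, was called, and 0 with any 1 library left out, with both replicate 1 libraries left out, with median-of-ratios factors, with no filter or with at least 10 counts in every library. Upper-quartile factors gave 2 and DESeq2 gave 3, all interferon or interleukin-10 receptor subunits. DESeq2 called 0.328% of all tested genes, and no such share is given for upper-quartile factors. Samples were not treated as paired by number, since not every correlation of deviations was over 0.1 (0.366, 0.524, 0.0297 and 0.327 for numbers 1 to 4). WT replicates 1, 2 and 4 correlated best with their own number and WT replicate 3 with Dp1Tyb replicate 4, a hint from the data that some numbers may share a source. A replicate block gave 1 called pathway gene, an interferon-stimulated gene, with spike-in scaling and 2, both receptor subunits, with relative scaling, and turned Cxcl12 to 0.03 (spike-in). The share of all tested genes called with the block is not given, so whether calls rose among all genes is not shown.

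Depth limits Ccl5 (3 to 14 counts) and Cxcl10 (35 to 86 counts). Multiply aligning reads were discarded, which can lower genes with close copies.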
